A study of Arabidopsis thaliana with 8 samples.

Results

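This account compares Arabidopsis thaliana seedlings that carried a dexamethasone-inducible ANAC096 construct and received abscisic acid (ABA) with seedlings that carried the empty vector and received no ABA. The comparison was defined by sample titles, and it holds 4 of the series' 8 one-colour Agilent arrays, 2 per group. All plants were 12-day-old Col-0 seedlings grown whole in liquid MS medium, so the RNA mixes root and shoot. The control group was the pTA empty vector line given 30 µM dexamethasone for 1 h. The ANAC096+ABA group was the pTA-ANAC096 line given 30 µM dexamethasone for 1 h, with 2 µM ABA present during the last 30 min. The remaining arrays are the single treatments: the pTA-ANAC096 line with dexamethasone only (ANAC096), and the empty vector line with dexamethasone and ABA (ABA). Dexamethasone was thus present in every group, and the groups compared here differ in both transgene and hormone. The sources used here do not give how many independent transformants were used or how plants were pooled, so the p-values rest on array-to-array spread that may be technical.

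ABA is the hormone that plants accumulate when water is short. It binds receptors of the PYR/PYL family, which then block PP2C phosphatases, and this frees SnRK kinases that phosphorylate bZIP transcription factors of the ABF group. These factors bind ABA-responsive elements in promoters and switch on genes that protect cells from drying. ANAC096 belongs to the NAC family of plant transcription factors, several members of which act in drought responses, and pTA vectors generally place a transgene under a steroid-activated factor so that dexamethasone turns it on. The study's title places ANAC096 beside bZIP factors in the response to water and osmotic stress. The comparison described here is the one in which both inputs were given together.

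The scanner files name each of the 43603 probes by the array maker's identifier and pair none with a gene, and 0 of these identifiers were found in the gene table used here. ANAC096 itself, the ABA pathway genes and the tissue markers were therefore not analysed here. The results below concern probes, which stand for transcripts whose names are not given. Levels are log2 processed signals, that is, background-subtracted spot intensities, minus the 75th percentile of the same array. A level of 0 thus equals that array's 75th percentile.

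The 4 arrays compared were alike in overall signal. Their processed signals had a 75th percentile between 6695 and 8128, and 0 probe spots were saturated. Between 75.08% and 79.84% of probes were well above background. On the single-treatment arrays, which also enter the fit, the 75th percentile was 5252 and 6552 (ANAC096) and 6165 and 6880 (ABA). The ANAC096+ABA arrays had a higher median signal on negative-control spots, 9.80 and 11.7, against 7.25 and 6.24 on the control arrays, and fewer probes well above background, 33065 and 32739 against 33911 and 34814. The ABA arrays were like the ANAC096+ABA arrays in this, at 10.2 and 9.78, with 32732 and 33111 probes well above background. The ANAC096 arrays were like control, at 5.89 and 7.47, with 34414 and 34046 probes. The part of these differences in falls of dim probes was not tested. A single slide, scanned once, carried every array. The control arrays occupied columns 1 and 2 of slide row 1 and the ANAC096+ABA arrays columns 3 and 4 of slide row 2, so slide position and group cannot be told apart. The ANAC096 arrays were also in slide row 1 and the ABA arrays in slide row 2.

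The combined treatment went with broad differences in both directions, and large rises were more numerous than large falls. Of 34503 tested probes, 2800 were higher by at least 2-fold (8.12%) and 1953 were lower by at least 2-fold (5.66%) at a limma adjusted p under 0.05. Together these were 13.8% of tested probes. Differences of at least 8-fold were found at 1.23%, with 333 rises (0.965%) and 92 falls (0.267%). These 8-fold counts moved with the processing: normexp background correction gave 194 rises and 27 falls, the authors' deposited table gave 191 and 31, and a limma test with the fold as the null gave 172 and 37. Rises were more numerous than falls in every size class from 2-fold upward. Between 2- and 4-fold there were 1868 rises and 1567 falls, between 4- and 8-fold 599 and 294, and between 8- and 16-fold 210 and 71. Between 16- and 32-fold there were 60 rises and 14 falls, and beyond 32-fold 63 and 7. The 2800 higher probes had a median log2 difference of 1.60 and the 1953 lower probes one of -1.40, while the median over all tested probes was -0.09. The central 90% of tested probes lay between -1.10 and 1.41, from the 5th to the 95th percentile.

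**Figure D1:**
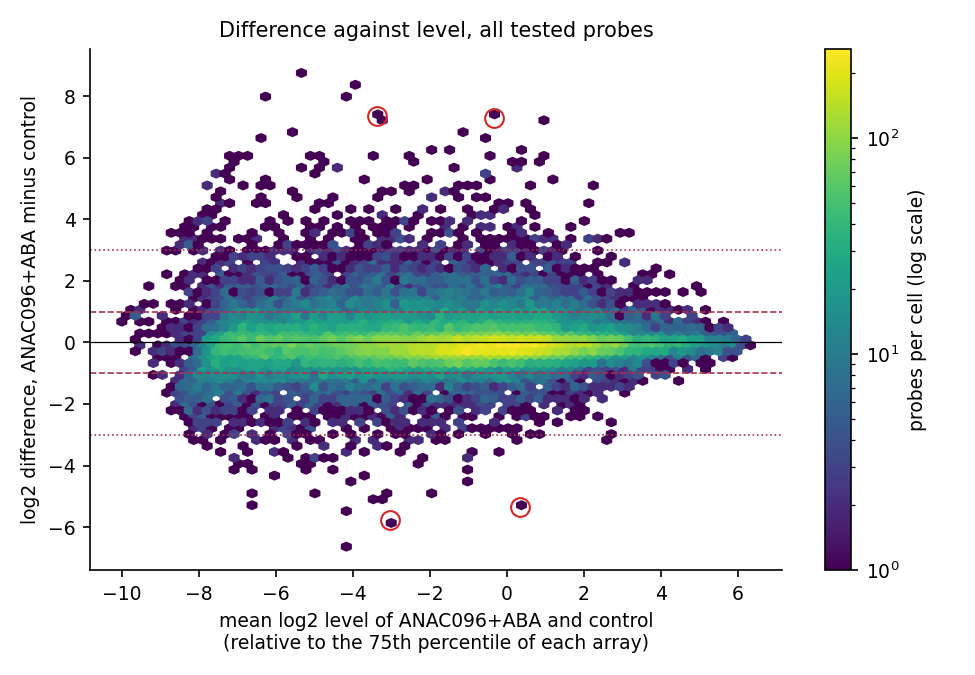
Log2 difference, ANAC096+ABA minus control, against the mean log2 level of the 2 groups for the 34503 tested probes, with the number of probes per cell in colour on a log scale. Dashed lines mark 2-fold and dotted lines 8-fold, and circles mark the 2 largest rises and 2 largest falls measured on all 4 arrays; most probes lie near 0, and the points beyond 8-fold are mostly rises.

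At any size of change the balance lay the other way. Without a minimum fold, limma called 21185 probes (61.4%), of which 8479 were higher (24.6%) and 12706 lower (36.8%). Most of these differences were small, as the 25th and 75th percentiles of all tested probes were -0.37 and 0.24 on the log2 scale. This balance depended on the scale. Scaling instead to the 7 E1A spike-ins that were well above background turned it to 7619 higher and 6362 lower, so that 54.5% of called probes were higher in place of 40.02%. At 2-fold the same scaling gave 3205 rises and 1728 falls. With scaling to all 10 E1A spike-ins, 3 of which were not above background on all 4 arrays, the counts at 2-fold were 2609 rises and 2268 falls.

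The spike-ins are control transcripts with their own probes on the array. For ANAC096+ABA against control, the bright ones show the size of a difference that the scale alone can produce. Those 7 differed between ANAC096+ABA and control by -0.18 to 0.02 on the log2 scale, with a mean difference of -0.09. Their mean level was 0.04 on each control array, -0.17 on ANAC096+ABA replicate 1 and 0.08 on ANAC096+ABA replicate 2. The 2 ANAC096+ABA arrays thus stood further apart from each other on spike-ins than either stood from the controls on average. After scaling to these spike-ins, the 2 ANAC096+ABA arrays differed by a median of 0.26 over all tested probes, against 0.01 on the 75th percentile scale. The other 3 spike-ins were not above background on all 4 arrays, and differed by 0.66, 0.79 and -0.16. Over all 10 spike-ins, the mean level was -2.79 and -2.82 on the control arrays and -2.82 and -2.65 on the ANAC096+ABA arrays. It was higher on the single-treatment arrays, at -2.14 and -2.31 for ANAC096 and -2.44 and -2.53 for ABA.

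Replicate arrays were close. The robust SD between replicates was 0.103 for control and 0.0675 for ANAC096+ABA on the log2 scale, and the median standard error of a difference was 0.0685. Among the 2800 higher probes, 2741 had both ANAC096+ABA arrays above both control arrays, and for 2383 (85.1%) even the nearest arrays of the groups were at least 2-fold apart. Among the 1953 lower probes the groups did not overlap for 1926, and the nearest arrays were at least 2-fold apart for 1495 (76.5%). Non-overlap by itself was common, at 78.2% of all 34503 tested probes in either direction, with 10718 higher and 16272 lower. Of all tested probes, 61.4% were called. Beyond 8-fold, the nearest arrays were at least 8-fold apart for 281 of the 333 rises and 69 of the 92 falls. All these probes were selected on the mean difference and spread of the same arrays, which favours such gaps. The nearest-array counts describe the called probes and are no separate support, and no share over all tested probes is given for them. With 2 arrays in each group, the smallest two-sided p of an exact permutation test is 0.333. Calls for single probes rest on each probe's own spread within the groups of all 8 arrays, with 4 residual degrees of freedom. Limma moderates this with a spread estimated across probes, with 1.99 prior degrees of freedom.

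A second view of precision came from probes printed at 2 places on the array. The 14300 such probes among those tested had a robust SD between their spots of 0.0948 to 0.121 on the 4 arrays compared. Of the 1124 higher probes with both spots usable on all 4 arrays, 1041 (92.6%) were at least 2-fold higher by each spot alone. Of 711 lower probes, 616 (86.6%) were at least 2-fold lower by each spot. These spots share an RNA sample, so they measure the error within an array and add no replicate. The probes were called on the mean of these same spots, which favours such shares, so they are no independent check of the calls.

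**Figure D2:**
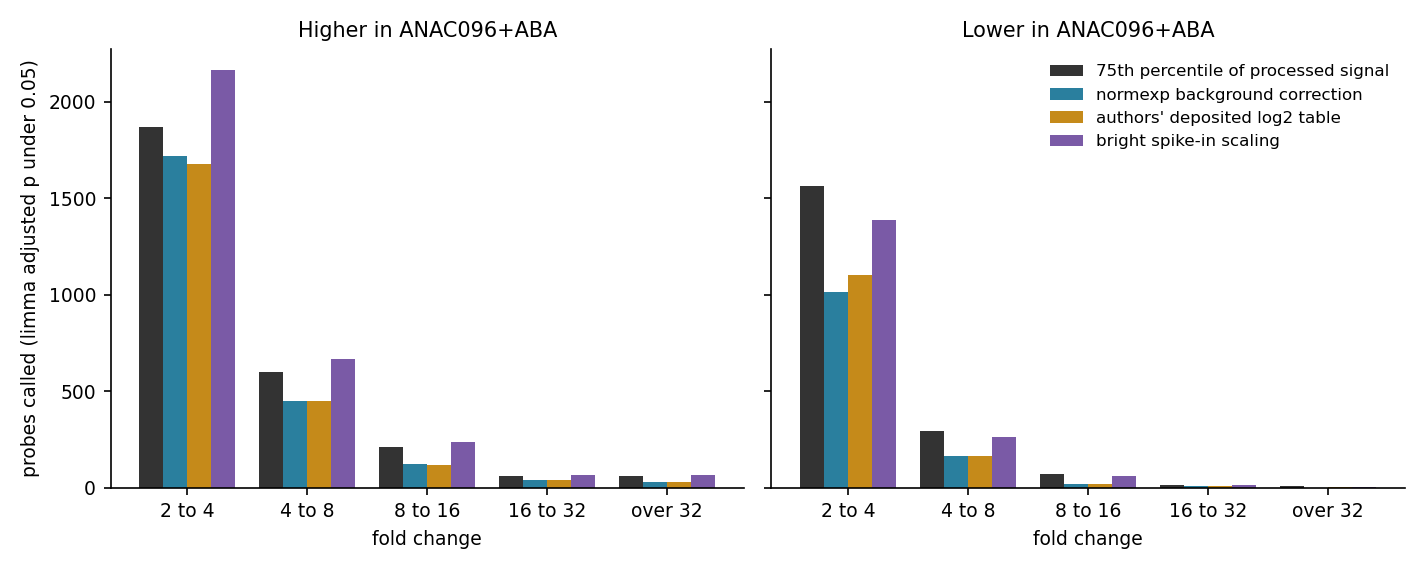
Number of probes called higher (left) or lower (right) in ANAC096+ABA than in control at a limma adjusted p under 0.05, by fold class, with 1 bar for each of 4 ways to process the signals. Rises outnumber falls in each class under each of the 4. Normexp correction and the deposited log2 table give fewer falls (1017 and 1101 between 2- and 4-fold, against 1567). They also give fewer rises (1722 and 1676 in that class, against 1868).

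By count, falls made up more of the called probes at dim levels than at bright ones. Tested probes were divided into 4 equal classes by mean level over all arrays. In the dimmest class 899 probes were at least 2-fold higher and 932 at least 2-fold lower. In the brightest class there were 533 rises and 219 falls. With normexp background correction the dimmest class held 523 rises and 276 falls, while the brightest class was little moved, at 537 and 225. The number of 2-fold falls among all tested probes became 1207 under normexp correction and 1299 on the authors' deposited table of log2 values, against 1953 here. The number of 2-fold rises became 2367 and 2319, against 2800. Of the 2800 higher probes, 2484 (88.7%) were well above background on all 4 arrays, and of the 1953 lower probes 1448 (74.1%) were.

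Some probes were well above background on the arrays of 1 group and not on those of the other. Here a probe counted as such on an array only if all its usable spots were well above background. A probe with only part of its spots above, or with no usable spot, counted as not above. In all, 150 called probes (0.435% of those tested) were well above background on both ANAC096+ABA arrays and on neither control array. For these a rise has a lower bound only, with the control level set at the higher of the probe's own signal and the dimmest well-detected probe on that array. Where an array had no usable spot, the level of that dimmest probe was used, so the bound then rests on an assumed level. By this bound 148 of the 150 were at least 2-fold higher and 37 at least 8-fold, with a median of at least 3.98-fold and a largest of at least 136-fold. In the opposite direction, 629 called probes (1.82%) were well above background on both control arrays and on neither ANAC096+ABA array. The ANAC096+ABA arrays also had higher negative-control signals than the control arrays, 9.80 and 11.7 against 7.25 and 6.24. Those of the ABA arrays were 10.2 and 9.78. The part of these signals in the counts was not tested. The bounds of these 629 probes were smaller: 169 were at least 2-fold lower, 13 at least 8-fold, and the median was at least 1.48-fold. For 90 of them the bound did not exceed 1, so no fold can be given. The largest fall of this kind was at least 79.3-fold.

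Where a probe was well above background on each of the 4 arrays, the furthest rises were those of A_84_P841862 and A_84_P21604, and the furthest falls those of A_84_P821712 and A_84_P20998. They were chosen by a fixed rule of size, so their large differences are given as a description of the extremes. Each was also well above background on the single-treatment arrays. They took different paths across the 4 groups.

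A_84_P841862 had the largest measured rise. Its log2 level was -7.00 and -7.11 on the control arrays and 0.29 and 0.31 on the ANAC096+ABA arrays. The processed signal was 63.7 and 52.8 in control and 8197 and 9572 in ANAC096+ABA. Its difference was 7.35 on the log2 scale (164-fold, SE 0.06, 95% interval 7.20 to 7.51, n = 2 arrays per group, limma adjusted p 9.3e-08). Both of its spots gave similar differences, 7.32 and 7.39. Normexp correction gave 6.23, and the value was 6.15 in the authors' deposited table. In the single treatments its level was -2.08 and -2.20 on the ANAC096 arrays and -1.51 and -1.51 on the ABA arrays. Both single treatments were above control, ANAC096 by 4.91 and ABA by 5.54 (limma adjusted p 7.3e-07 and 5.2e-07), and no array of 1 group overlapped another group. These differences were 3.85 and 4.47 after normexp correction and 3.73 and 4.40 on the authors' deposited table, and that of ANAC096 was 4.29 with scaling to the bright spike-ins. ANAC096+ABA exceeded ANAC096 by 2.44 (limma adjusted p 4.4e-06) and ABA by 1.81 (limma adjusted p 9.7e-06). Scaling to the bright spike-ins gave 3.15 for the first of these.

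A_84_P21604 was high on every array of the ANAC096 line and low on every array of the empty vector line. Its log2 level was -4.04 and -3.95 in control and 3.20 and 3.42 in ANAC096+ABA, a difference of 7.31 (158-fold, SE 0.08, 95% interval 7.11 to 7.50, limma adjusted p 1.4e-07). Its 2 spots gave 7.21 and 7.41. On the ANAC096 arrays the level was 3.03 and 2.97, close to the combination, and on the ABA arrays -3.32 and -3.30, which was above control by 0.68 (limma adjusted p 9.7e-04). The combination exceeded ANAC096 by 0.31 (limma adjusted p 2.1e-02) and by 1.02 with scaling to the bright spike-ins. It exceeded ABA by 6.62 (limma adjusted p 1.4e-06).

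A_84_P821712 fell furthest. Its log2 level was -0.11 and -0.20 in control and -5.80 and -6.02 in ANAC096+ABA, and the processed signal went from 7558 and 6364 to 120 and 119. The difference was -5.76 (54.2-fold lower, SE 0.10, 95% interval -6.01 to -5.51, limma adjusted p 3.8e-07), and its spots gave -5.62 and -5.90. Normexp correction gave -5.00, and the authors' deposited table held a difference of -5.05. The single treatments stood much nearer to control, at -0.64 and -0.87 on the ANAC096 arrays and -1.56 and -1.56 on the ABA arrays. Both were below control, ANAC096 by a log2 difference of -0.60 and ABA by -1.41 (limma adjusted p 3.4e-03 and 1.6e-04). Scaling to the bright spike-ins gave -1.23 and -1.68 for these. ANAC096+ABA was below ANAC096 by a log2 difference of -5.16 and below ABA by -4.35 (limma adjusted p 2.4e-06 and 4.2e-06). The differences of the combination from ANAC096 and ABA became -4.42 and -3.60 after normexp correction and -4.46 and -3.66 on the authors' deposited table. The difference from ANAC096 was -4.44 with scaling to the bright spike-ins.

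A_84_P20998, with 1 spot per array, was bright in control and also fell. Its level was 2.97 and 3.06 in control and -2.35 and -2.31 in ANAC096+ABA, a difference of -5.35 (40.6-fold lower, SE 0.05, 95% interval -5.46 to -5.23, limma adjusted p 9.3e-08). The processed signal was 63778 and 60831 in control and 1316 and 1555 in ANAC096+ABA. On the ANAC096 arrays the level was 2.94 and 2.93, and on the ABA arrays 1.90 and 1.90. The log2 difference between ANAC096 and control was -0.08 (limma adjusted p 1.9e-01) on the 75th percentile scale, but -0.70 (limma adjusted p 2.6e-04) with scaling to the bright spike-ins. That between ABA and control was -1.12 (limma adjusted p 1.8e-05). The combination lay below ANAC096 by -5.27 and below ABA by -4.23 on the log2 scale (limma adjusted p 6.6e-07 and 1.4e-06), and the first of these was -4.55 with scaling to the bright spike-ins.

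**Figure D3:**
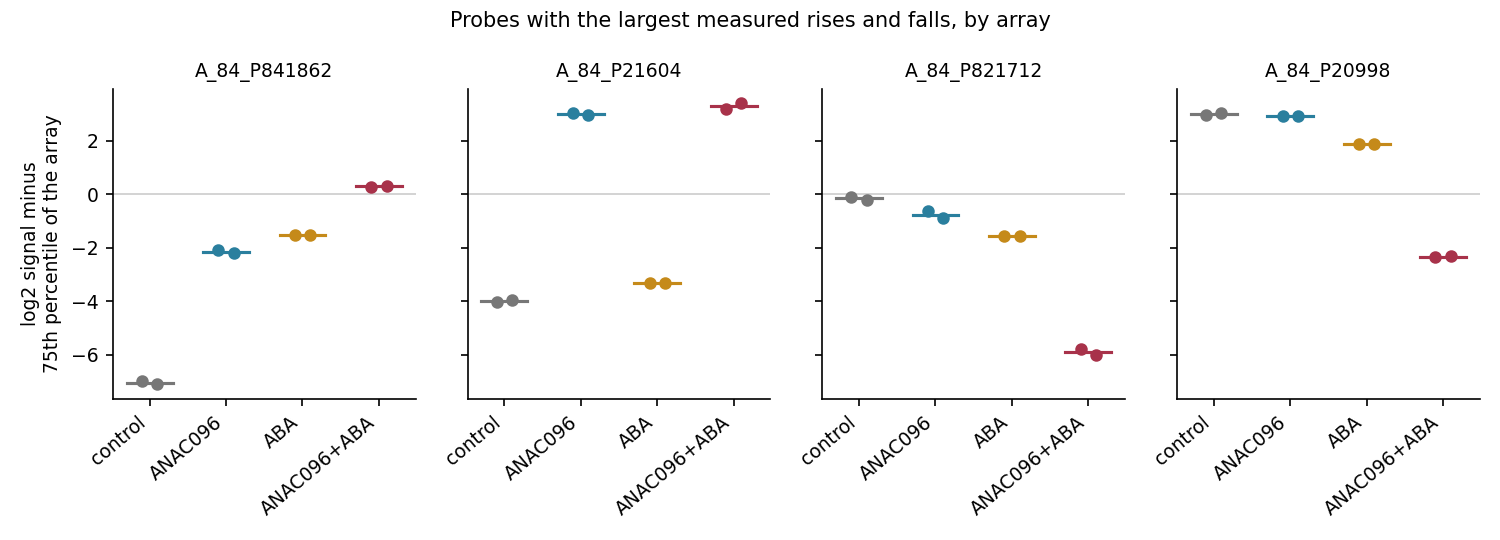
Log2 level, relative to the 75th percentile of the array, of the 4 probes with the largest measured rises and falls on each of the 8 arrays (points), with the mean of each group of 2 (lines). A_84_P841862 rises in steps from -7.05 in control to 0.30 in ANAC096+ABA, A_84_P21604 separates the lines, and A_84_P821712 and A_84_P20998 are far lower in ANAC096+ABA than in any other group.

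Values for the same probes in each single treatment can be set beside those of the combination, although all 3 comparisons share the control arrays and the probes were selected on the combination. For the 2800 higher probes the median log2 difference from control was 1.60 in ANAC096+ABA, 1.11 in ANAC096 and 0.86 in ABA. For the 1953 lower probes these medians were -1.40, -0.68 and -0.59. Over all tested probes they were -0.09, -0.04 and -0.07. The order of the single treatments depended on the scale. With scaling to the bright spike-ins the medians of the same higher probes were 1.69 in ANAC096+ABA, 0.49 in ANAC096 and 0.59 in ABA. Those of the lower probes were -1.31, -1.31 and -0.86, so that ANAC096 and the combination had the same median to 2 decimals. Over all tested probes that scaling gave 0.00, -0.66 and -0.34. For the 333 probes at least 8-fold higher the medians were 3.72, 2.54 and 2.34, and for the 92 at least 8-fold lower they were -3.48, -1.37 and -1.43. With the bright spike-ins these became 3.81, 1.92 and 2.07 for the rises and -3.39, -1.996 and -1.71 for the falls. On the 75th percentile scale the spread within the single treatments was wide: among the 92 falls, the 10th to 90th percentile ran from -3.52 to 0.85 in ANAC096 and from -3.22 to -0.07 in ABA. Among the 333 rises it ran from 1.34 to 4.24 in ANAC096 and from 0.82 to 4.24 in ABA.

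**Figure D4:**
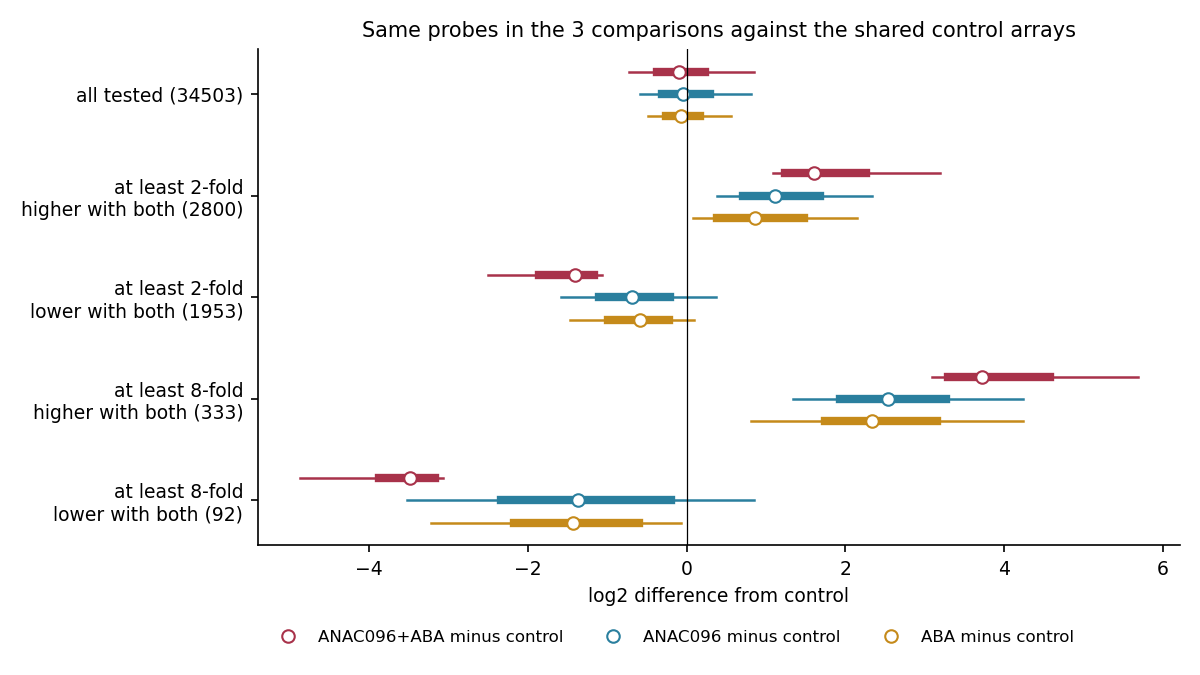
Log2 difference from control in ANAC096+ABA, ANAC096 and ABA for all 34503 tested probes and for those called at least 2-fold or 8-fold higher or lower with both treatments. Values are on the 75th percentile scale. Circles are medians, thick bars the 25th to 75th and thin bars the 10th to 90th percentile over probes; the probes were selected on the first comparison and all 3 share the control arrays.

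Most of the higher probes reached their highest level in the combination, while the order among the lower probes moved with the scale. Of the 2800 higher probes, the highest group mean was that of ANAC096+ABA for 2370, of ANAC096 for 277 and of ABA for 153. Both ANAC096+ABA arrays lay above all 6 other arrays for 2170 (77.5%), against 16.8% of all tested probes. Of the 1953 lower probes, the lowest group mean was that of ANAC096+ABA for 1652, of ANAC096 for 202 and of ABA for 99, and both arrays lay below the other 6 for 1437 (73.6%), against 18.3% of all tested probes. Beyond 8-fold, the ANAC096+ABA arrays were the highest of all 8 for 303 of 333 rises and the lowest for 73 of 92 falls. With scaling to the bright spike-ins, ANAC096+ABA had the highest mean for 2701 of the higher probes, and both its arrays lay above the other 6 for 2537 (90.6%), against 27.6% of all tested probes. Of the lower probes it then had the lowest mean for 926, against 826 for ANAC096 and 201 for ABA, and both arrays lay below the other 6 for 656 (33.6%), against 2.62% of all tested probes. Beyond 8-fold the counts were 316 of 333 rises and 65 of 92 falls on that scale. Selection on the ANAC096+ABA arrays favours these orders, and no test was made of them.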

How the data were processed

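Linear intensity values of single spots, 1 scanner file an array, were deposited by the authors; they were extracted with Feature Extraction 10.7.1.1 on array design 031025, per the file headers. The spot flags used from the deposited files are 0 or 1. A deposited table of log2 values by the authors was also used, whose columns equalled quantile-normalized log2 median signals to within 5.0e-09 and had medians of 10.26 to 10.27. Here each array's 75th percentile over all spots was subtracted from log2 processed signals. The 1319 control spots and outlier spots (467 to 1230 on the 4 arrays compared) were left out, and spots of a probe were averaged. Tested were the 34503 of 43603 probes (79.1%) that were well above background on both arrays in 1 or more groups and had a value in every group; 600 lacked a value on 1 or more of the 4 arrays, and these were fitted on the rest. A model of group means over the 8 arrays was fitted in limma 3.58.1 (R 4.3.3; residual degrees of freedom 4, prior 1.99), with Benjamini-Hochberg adjustment at 0.05 over all tested probes. The fit was tested on simulated data. Groups and replicate numbers came from sample titles. Named probes are the 2 largest rises and falls among called probes that were well above background on all 4 arrays and did not overlap between groups. The number of arrays limits the precision. The comparison, lists and rules were chosen with earlier results of these data known. Gene lists could not be used, since probes have no gene names here. Background correction, normalization, filters, samples in the fit and replicates were varied.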

Additional observations from a re-analysis of the deposited data

Results flagged for a closer look

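The ABA effect differed between the lines for each of the 4 named probes, by the interaction term of the limma fit. These probes were chosen by their ANAC096+ABA arrays, which also enter the interaction, so neither its direction nor its p-value is independent of the choice. For A_84_P821712 the effect of ABA was lower in the ANAC096 line by -3.75 on the log2 scale (limma adjusted p 3.1e-05), and for A_84_P20998 by -4.15 (limma adjusted p 7.8e-06). For A_84_P841862 the interaction was -3.10 on the log2 scale (limma adjusted p 1.4e-05). Its level rose with ABA in both lines, by 5.54 in the empty vector line and by 2.44 in the ANAC096 line. The processed signal went from 63.7 and 52.8 to 2164 and 2416 in the empty vector line. In the ANAC096 line it went from 1242 and 1422 to 8197 and 9572. The rise with ABA was thus smaller in the ANAC096 line on the log2 scale but larger in signal units. Over 13 other settings, including scaling to spike-ins, these 3 kept their sign and stayed past the threshold, with ranges of -3.86 to -2.76, -4.19 to -3.17 and -3.16 to -1.98. The interaction of A_84_P21604 was -0.37 (limma adjusted p 4.0e-02), but it was 0.46 with scaling to all spike-ins and 0.61 with scaling to the bright ones. It missed the threshold with no filter on dim probes (limma adjusted p 0.0615), without control replicate 1 (limma adjusted p 0.096) and without ANAC096+ABA replicate 1 (limma adjusted p 0.0709).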

How the results depend on the processing

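The differences of the 4 named probes kept their direction and stayed past the threshold in all 14 other settings, with the highest adjusted p at 9.9e-05 in limma. Several counts moved by more than 1.5 times. Normexp correction, run on median signals because the files hold no mean signal, gave 1207 probes at least 2-fold lower, 194 at least 8-fold higher and 27 at least 8-fold lower; the authors' deposited table gave 1299, 191 and 31. The smaller set of probes well above background on each of the 4 arrays held 52 at least 8-fold lower. With the fold as the null (limma's treat), 1853 were higher and 989 lower at 2-fold, and 172 and 37 at 8-fold. Scaling to bright spike-ins called 6362 probes lower at any fold, but scaling to all 10, of which 3 were near background, gave 6222 higher and 10916 lower. Normexp correction used an offset of 50. At 2-fold it gave 2367 rises and the deposited table gave 2319, against 2800. Why both gave fewer 2-fold rises and falls was not tested. Normexp, treat, bright spike-in scaling, flags of the spot alone and other scales for the side-by-side medians and group orders were chosen after the data were seen. Each of the 4 arrays compared was left out in turn, which leaves 1 array in its group. The log2 difference was then 7.30 to 7.41 for A_84_P841862 and 7.20 to 7.41 for A_84_P21604. It was -5.87 to -5.65 for A_84_P821712 and -5.39 to -5.30 for A_84_P20998. The median over all tested probes was -0.11 to -0.07. The single-treatment arrays, which also enter the fit, were not left out. Replicate numbers gave no sign of pairing, as deviations of control and ANAC096+ABA correlated at 0.06 across probes; with the replicate block, 8300 probes were higher and 12426 lower at any fold and 2794 and 1952 at 2-fold.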

Other observations

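Differences were spread over the whole array. In 16 equal blocks of rows and columns, the median log2 difference of tested spots was -0.13 to -0.02. The share of spots at least 2-fold higher was 7.60% to 9.58%, and the share at least 2-fold lower was 5.02% to 7.27%.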
